A study of Mus musculus with 16 samples.

Results

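Untreated mouse embryonic stem (ES) cells were sampled at day 12 and at day 4 of the same experiment, and how their transcript levels differed between these days is described here across all genes. The arrays were chosen by their labels alone. They are the 8 untreated arrays of the 16 in the series, 4 titled day 12 and 4 titled day 4. Each group holds 2 arrays of clone 10 and 2 of clone 15, numbered replicate 1 and replicate 2. The series compared ES cells deprived of Rybp, a Polycomb protein, with untreated cells of the same clones.

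The untreated groups at day 12 and day 4 are labelled as wild-type controls and received no 4-hydroxytamoxifen (OHT). The KO groups at day 12 and day 4, used here for comparison only, were given 800 nM OHT for 24 hours to deplete Rybp. All cells were of a 129/B6 hybrid background and grew in serum with leukaemia inhibitory factor (ESGRO). The labels name fibroblast feeders or gelatin as the growth surface without saying which array had which, and do not say from what event the days are counted for cells that received nothing. Each clone is 1 line, and nothing in the labels tells if the replicates of a clone came from separate dishes. The p-values therefore cover array-to-array spread only, part of which may be technical. The 2 probe sets that Rybp shares with its pseudogene went opposite ways. One averaged 189 ± 74.6 at day 12 and 97.4 ± 18.5 at day 4 in KO cells, and 3029 ± 334 at day 12 and 2754 ± 609 at day 4 in untreated cells (SD, n = 4 arrays each). The other averaged 4199 ± 997 at day 12 and 6002 ± 1840.4 at day 4 in KO cells, and 959.9 ± 963 at day 12 and 1363 ± 1282 at day 4 in untreated cells (SD, n = 4 arrays each). What part of the gene each detects was not examined here. Where 4 values are given for a day, the replicate 1 arrays of clones 10 and 15 come before the replicate 2 arrays of the same clones.

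ES cells in serum and leukaemia inhibitory factor self-renew under the transcription factors Pou5f1, Sox2 and Nanog, and single cells in such cultures can leave this state. One lineage they form in culture is primitive endoderm, the extraembryonic layer specified in the blastocyst by Gata6, Gata4, Sox17 and Sox7 downstream of FGF signalling. Its derivatives, visceral and parietal endoderm, lay down basement membrane rich in type IV collagen and laminin, take up maternal proteins through the cubilin, amnionless and megalin receptors, and secrete carriers of lipid, retinol and thyroid hormone.

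Values are deposited intensities on a linear scale, with the same median of 93.3 on every array. Differences are log2 of day 12 minus log2 of day 4 with the standard error (SE) of the fit, and intensities carry their SD over 4 arrays. A gene was taken as changed at a limma adjusted p under 0.05. At day 12, 119 of 18195 entries were higher (0.654%) and 62 were lower (0.341%), 0.995% in all, and 77 and 20 of them differed at least 2-fold. The median difference of the 119 was 1.28 and that of the 62 was -0.86, beside 0.02 over all genes. In 118 of the 119 and in 60 of the 62 the day 12 and day 4 arrays did not overlap, which the choice of these genes on the same arrays favours. Over all genes 4.46% did not overlap in the higher direction and 3.86% in the lower. Fitted to the 8 untreated arrays alone, without the KO arrays, 20 genes were higher and 1 was lower. Leaving out 1 array in turn gave 66 to 118 higher and 19 to 52 lower genes. The fewest higher genes were found without the untreated day 12 clone 10 arrays (66 without replicate 1 and 71 without replicate 2) and without the day 4 clone 10 replicate 2 array (78).

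**Figure D1:**
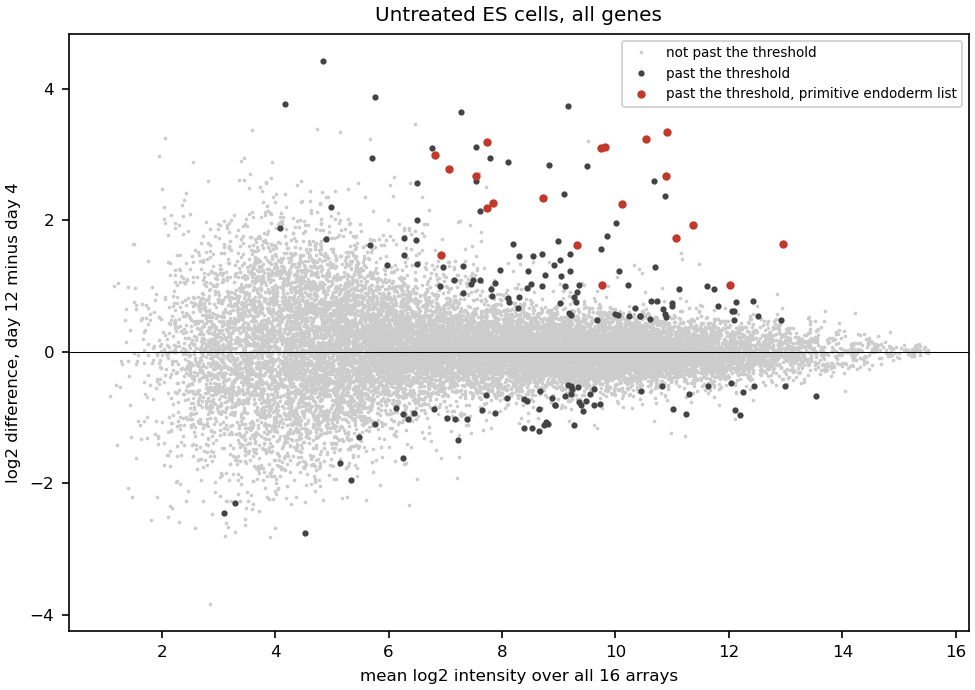
Log2 difference between untreated day 12 and day 4 (vertical axis) against the mean log2 intensity over all 16 arrays (horizontal axis), 1 point per gene. Dark and red points passed the adjusted p threshold, and the red points are the 20 genes of the primitive endoderm list that did, all of them on the higher side.

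These counts differed between the replicate numbers. At day 4 the replicate 2 arrays were higher than the replicate 1 arrays in 1025 genes (5.63%) and lower in 1730 (9.51%). At day 12 they were higher in 1 gene (0.0055%) and lower in 2 (0.011%). The labels do not say what a number stands for, and the arrays of a number did not deviate together between the days. Within day 4 they did so, with r across genes of 0.15 between untreated clone 10 and clone 15. In the fit with a mean for each number and group, 363 genes were higher (2%) and 261 lower (1.43%) at day 12 among the replicate 1 arrays, and 1530 were higher (8.41%) and 1154 lower (6.34%) among the replicate 2 arrays. Of the 119 higher genes 89 were also called among the replicate 1 arrays and 108 among the replicate 2 arrays, as were 25 and 53 of the 62 lower genes. The choice of these genes on the same arrays favours this overlap. The array's RNA controls, as 3′ minus 5′ log2 intensity, differed between day 12 and day 4 by -0.03 for actin, -0.01 for Gapdh, 0.13 for the transferrin receptor and -0.45 for pyruvate carboxylase. The last was 0.503, 0.528, 0.880 and 0.541 at day 12, against 1.47, 1.54, 0.515 and 0.748 at day 4, so that it split by replicate number at day 4. Its part in the results was not tested.

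Primitive endoderm genes rose at day 12. Of 36 measured members of that list 20 were higher and 0 were lower, against 0.654% and 0.341% of all entries, and the median difference of the list was 1.84. All 36 differences were above 0, as were 9511 of all 18195 entries. In 29 of the 36 the day 12 and day 4 arrays did not overlap, as in 4.46% of all entries in the higher direction. The mean log2 intensity of the list was 9.46 ± 0.10 at day 12 and 7.59 ± 0.26 at day 4 (SD, n = 4 arrays each). In these bulk samples more cells of a type and more RNA per cell cannot be told apart. The untreated arrays alone gave 6 of the 36 as higher. The list was drawn up with earlier results of these data known.

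The transcription factors that define the lineage were low at day 4, and Gata6 and Sox17 rose by day 12. Gata6, which can by itself drive ES cells into primitive endoderm, read 436, 265, 419 and 408 at day 12, against 73.3, 89.5, 71.7 and 97.3 at day 4. No day 12 array overlapped a day 4 array, with a log2 difference of 2.19 ± 0.24 (adjusted p = 0.00101). Sox17, a factor of primitive and definitive endoderm, read 571, 432, 462 and 442 at day 12, against 81.3, 158, 36.3 and 65.1 at day 4, a log2 difference of 2.67 ± 0.56 (adjusted p = 0.0458), and its call was lost in 13 of the 16 fits that left out 1 array (adjusted p up to 0.13). Gata4 had 370.2, 256, 396 and 292 at day 12, against 100.5, 141, 56.7 and 65.0 at day 4. Its arrays did not overlap either, but a log2 difference of 1.93 ± 0.48 (adjusted p = 0.0823) missed the threshold. The same held for Sox7 (a log2 difference of 1.35 ± 0.29, adjusted p = 0.0531), Foxa2 (a log2 difference of 2.16 ± 0.47, adjusted p = 0.0509) and the PDGF receptor gene Pdgfra, a surface marker of the lineage (a log2 difference of 1.72 ± 0.46, adjusted p = 0.105). Hnf4a, a factor of the later visceral endoderm, differed by 0.61 ± 0.34 with overlapping arrays. The summed intensity of the 6 defining markers Gata4, Gata6, Sox17, Sox7, Pdgfra and Dab2 was 3154 to 4764 over the day 12 arrays and 465 to 1030 over the day 4 arrays.

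Of the 4 members of the list known from receptor-mediated uptake, Dab2, Amn and Lrp2 rose and Cubn did not pass. Dab2, the adaptor that links megalin to clathrin, read 2992, 1858, 2717 and 1909 at day 12, against 251, 509, 198 and 217 at day 4. The lowest day 12 array lay above the highest day 4 array by several fold, with a log2 difference of 3.09 ± 0.35 (adjusted p = 0.00111). Amn, the amnionless protein that carries cubilin to the surface, read 742, 585, 866 and 722 at day 12, against 118, 183, 165 and 117 at day 4, a log2 difference of 2.33 ± 0.20 (adjusted p = 0.000164). Lrp2, which encodes megalin, read 1037, 686, 1359 and 1014 at day 12, against 250.5, 296, 451 and 319.9 at day 4, a log2 difference of 1.63 ± 0.23 (adjusted p = 0.00477). Cubn, the cubilin gene itself, had intensities of 2447, 1443, 3219.9 and 2063 at day 12, against 205, 436, 170.4 and 213 at day 4. Its log2 difference of 3.21 ± 0.73 did not pass (limma adjusted p = 0.0595).

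Among members that encode basement membrane proteins or their processing enzymes, Col4a1 and Col4a2 had the largest differences. Col4a1, encoding the alpha 1 chain of type IV collagen, read 5588, 3799, 6999 and 5538 at day 12, against 654, 1057, 279.6 and 402 at day 4. Col4a2, encoding its partner chain, read 2651, 1741, 3189 and 2261 at day 12, against 387, 531, 151 and 195 at day 4. Both differed in all arrays, by a log2 difference of 3.34 ± 0.47 (adjusted p = 0.00477), and a log2 difference of 3.11 ± 0.45 (adjusted p = 0.00573). The day 4 values split by replicate number in both, the replicate 2 arrays being lower, and the day difference of Col4a1 was 4.21 among the replicate 2 arrays and 2.47 among the replicate 1 arrays (limma adjusted p of the difference = 0.0442). The pair lies head to head on chromosome 8, and their promoter windows, from 250 bases before to 50 bases after each start (RefSeq, GRCm38.p6), share 78 bases, chr8:11312777-11312854, read from opposite strands. They are shown because these neighbours moved together, with the shared stretch in capitals:
Col4a1, minus strand, chr8:11312777-11313076: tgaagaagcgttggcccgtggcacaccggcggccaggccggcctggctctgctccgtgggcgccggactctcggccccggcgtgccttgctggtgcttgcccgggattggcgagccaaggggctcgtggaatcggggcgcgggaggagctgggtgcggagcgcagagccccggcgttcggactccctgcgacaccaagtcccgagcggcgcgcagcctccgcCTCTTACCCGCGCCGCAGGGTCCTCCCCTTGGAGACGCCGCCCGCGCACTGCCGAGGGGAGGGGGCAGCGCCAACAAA
Col4a2, plus strand, chr8:11312555-11312854: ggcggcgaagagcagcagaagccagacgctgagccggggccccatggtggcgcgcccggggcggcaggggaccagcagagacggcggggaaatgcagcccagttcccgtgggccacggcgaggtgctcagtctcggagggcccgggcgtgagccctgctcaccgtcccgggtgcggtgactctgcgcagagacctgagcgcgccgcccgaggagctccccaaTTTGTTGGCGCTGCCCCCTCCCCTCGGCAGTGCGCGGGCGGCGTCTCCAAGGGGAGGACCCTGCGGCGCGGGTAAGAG

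The laminin chain genes Lama1 and Lamb1, whose products form laminin-111 with the Lamc1 chain, also rose. Lama1 read 5249, 2899.9, 5431 and 4062 at day 12, against 910.4, 1066, 468 and 454 at day 4, a log2 difference of 2.67 ± 0.39 (adjusted p = 0.00598). Lamb1 read 6548, 5480.2, 5975 and 5234 at day 12, against 2879, 3138, 2832 and 2673 at day 4, a log2 difference of 1.01 ± 0.17 (adjusted p = 0.0144), and lost its call in 2 of the 16 fits that left out 1 array (adjusted p up to 0.0526). Lamc1 had 4084, 2170.4, 5624 and 4304 at day 12, against 1866, 1938, 973 and 958 at day 4, and did not pass (limma adjusted p = 0.0804). Its log2 difference was 2.35 among the replicate 2 arrays and 0.65 among the replicate 1 arrays (limma adjusted p of the difference = 0.0338). Sparc, a secreted collagen-binding protein, was the brightest of the group at 11481, 11154, 16071 and 13427 at day 12, against 4059.6, 5984, 2981 and 4020.3 at day 4, a log2 difference of 1.64 ± 0.22 (adjusted p = 0.00377). The other probe sets of Sparc differed by 1.33 and -0.004 without passing. Serpinh1, the collagen chaperone of the endoplasmic reticulum, read 3774, 3284, 4371 and 4284 at day 12, against 1093, 1138, 947 and 939.8 at day 4, a log2 difference of 1.93 ± 0.15 (adjusted p = 0.000164), and its arrays of a day lay close together. P4ha2, a collagen prolyl hydroxylase subunit, rose by 1.02 ± 0.15 (limma adjusted p = 0.00723), and P4ha1, another such subunit listed with the glycolysis and hypoxia genes, by 0.77 ± 0.14 (limma adjusted p = 0.02).

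**Figure D2:**
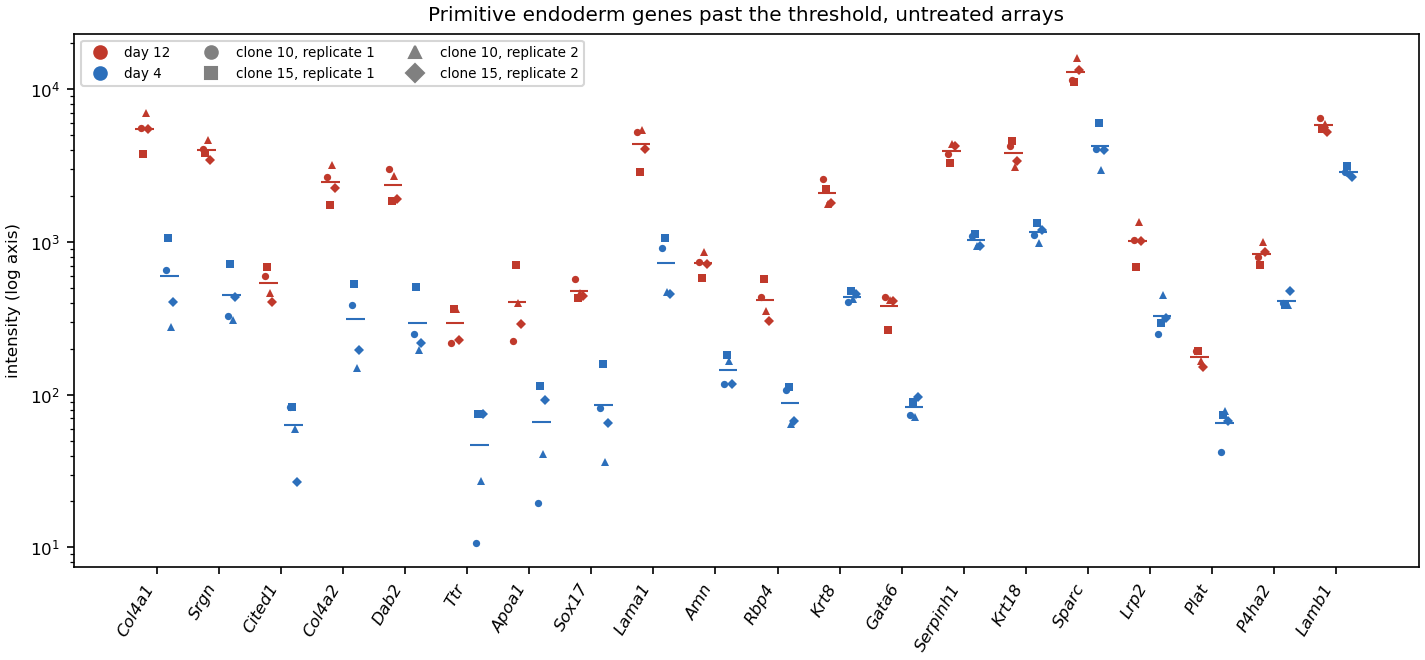
Intensity (log axis) of the 20 primitive endoderm genes past the threshold on the 4 untreated day 12 arrays (red, left) and the 4 day 4 arrays (blue, right) of each gene, with the shape giving clone and replicate and the bar the mean. No day 4 point reaches the day 12 points of its gene.

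Among members that encode secreted carriers, Ttr, Rbp4 and Apoa1 rose, whereas Afp, Apob and Apoe did not pass. Ttr, the thyroid hormone and retinol carrier transthyretin, read 217, 363, 365 and 228 at day 12, against 10.8, 75.0, 27.1 and 74.6 at day 4, a log2 difference of 2.99 ± 0.44 (adjusted p = 0.00612). Rbp4, the plasma retinol-binding protein, read 439, 574, 354 and 304 at day 12, against 107, 113, 64.8 and 66.9 at day 4, a log2 difference of 2.25 ± 0.29 (adjusted p = 0.00317). Apoa1, the apolipoprotein of high density lipoprotein, read 227, 703, 397 and 292 at day 12, against 19.4, 114, 41.1 and 93.1 at day 4, a log2 difference of 2.77 ± 0.48 (adjusted p = 0.0165), and lost its call in 3 of the 16 fits that left out 1 array (adjusted p up to 0.0652). For Ttr and Apoa1 the day 4 arrays reached below 28.3, the 25th percentile of all intensities, where log2 values scatter widely; with every value under it raised to it the folds were 6.19 for Ttr and 6.22 for Apoa1. The later yolk sac genes Afp and Apob had overlapping or close groups, Afp with 40.7, 129, 109 and 70.0 at day 12, against 40.2, 72.0, 40.1 and 1.95 at day 4 and Apob with 92.2, 193, 139.7 and 91.4 at day 12, against 89.9, 44.2, 56.6 and 89.6 at day 4, and neither passed (limma adjusted p = 0.382 and limma adjusted p = 0.26). Apoe was bright throughout and differed by 0.37 ± 0.12 (limma adjusted p = 0.165).

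Among the remaining members, Srgn, the core protein of serglycin proteoglycan, read 4066, 3862, 4638 and 3452 at day 12, against 330.3, 717, 308 and 438 at day 4, a log2 difference of 3.23 ± 0.27 (adjusted p = 0.000164). Cited1, a transcriptional co-activator, read 599, 682, 466 and 405 at day 12, against 83.3, 83.1, 59.5 and 26.7 at day 4, a log2 difference of 3.19 ± 0.46 (adjusted p = 0.00543). The genes of the simple epithelial keratin pair, Krt8 and Krt18, which neighbour each other on chromosome 15, had values for Krt8 of 2586, 2238, 1775 and 1793 at day 12, against 402, 476, 427 and 454 at day 4. Krt18 read 4244, 4627, 3116 and 3414 at day 12, against 1121, 1329.7, 980.4 and 1202 at day 4. All day 12 arrays were above all day 4 arrays in both, by a log2 difference of 2.24 ± 0.23 (adjusted p = 0.000666), and a log2 difference of 1.72 ± 0.18 (adjusted p = 0.000666). Krt19 did not follow them: it read 489, 764, 406 and 508 at day 12, against 207, 221, 480.0 and 711 at day 4, with a difference of -0.36 among the replicate 2 arrays and 1.52 among the replicate 1 arrays (limma adjusted p of the difference = 0.0173). Plat, tissue plasminogen activator and a marker of parietal endoderm, rose by 1.46 ± 0.28 (limma adjusted p = 0.0251), a call lost in 7 of the 16 fits that left out 1 array (adjusted p up to 0.0853). Aqp8, Foxq1, Ihh, Thbd and Fst did not pass, with differences of 1.82, 1.16, 0.84, 0.34 and 0.25.

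Of the 20 genes, 15 had promoter windows in the part of the RefSeq table searched, which left out a chromosome, 20 windows in all. The share over all windows, given next, left out no chromosome. The letters AGATAA or, on the other strand, TTATCT, which hold the core that GATA factors bind, occurred in 2 of the 20 windows, after the start of Dab2 and before that of Krt8, and in 11.2% of all 32851 windows. Other letters with that core were not searched, and the Dab2 window also holds tgataa before its start. Both windows are shown with AGATAA or TTATCT in capitals:
Dab2, plus strand, chr15:6299539-6299838: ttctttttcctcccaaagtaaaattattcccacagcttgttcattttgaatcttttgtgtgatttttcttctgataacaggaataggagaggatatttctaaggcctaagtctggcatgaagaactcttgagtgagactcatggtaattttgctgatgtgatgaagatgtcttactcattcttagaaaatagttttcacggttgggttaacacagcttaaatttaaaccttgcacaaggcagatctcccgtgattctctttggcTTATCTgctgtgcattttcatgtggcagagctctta
Krt8, minus strand, chr15:102004293-102004592: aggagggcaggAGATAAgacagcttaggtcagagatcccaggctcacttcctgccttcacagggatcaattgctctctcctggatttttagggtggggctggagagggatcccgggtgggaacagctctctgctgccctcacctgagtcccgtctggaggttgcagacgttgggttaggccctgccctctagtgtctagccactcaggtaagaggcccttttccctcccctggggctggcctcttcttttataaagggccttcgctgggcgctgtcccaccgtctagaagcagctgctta

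The day difference of the primitive endoderm list was seen in both replicate numbers, both clones and the KO cells. Among the replicate 1 arrays 20 of the 36 were called higher, where 2% of all entries were, with a median of 1.73. Among the replicate 2 arrays 25 were, where 8.41% of all entries were, with a median of 2.25. At day 4, 6 members were lower and 1 was higher in replicate 2 than in replicate 1 arrays, where 9.51% and 5.63% of all entries were, and at day 12 0 differed. The median was 2.04 in clone 10 and 1.73 in clone 15, and 28 of the 36 differences were larger in clone 10, yet 0 members passed the test of the clone difference (lowest limma adjusted p = 1). At day 4, untreated and KO arrays of the same clone and number deviated together (r across genes 0.172 in clone 10 and 0.174 in clone 15), so the KO arrays are not wholly separate. In them 30 of the 36 were higher at day 12 than at day 4, where 2.24% of all entries were, with a median of 2.16. The increase was the larger in KO cells for 30 of the 36, but for 0 members did the difference between KO and untreated cells pass (lowest limma adjusted p = 0.816). Lrp2, with 3.20 in KO and 1.63 in untreated cells, had one of the 5 smallest p-values of that test over all entries.

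**Figure D3:**
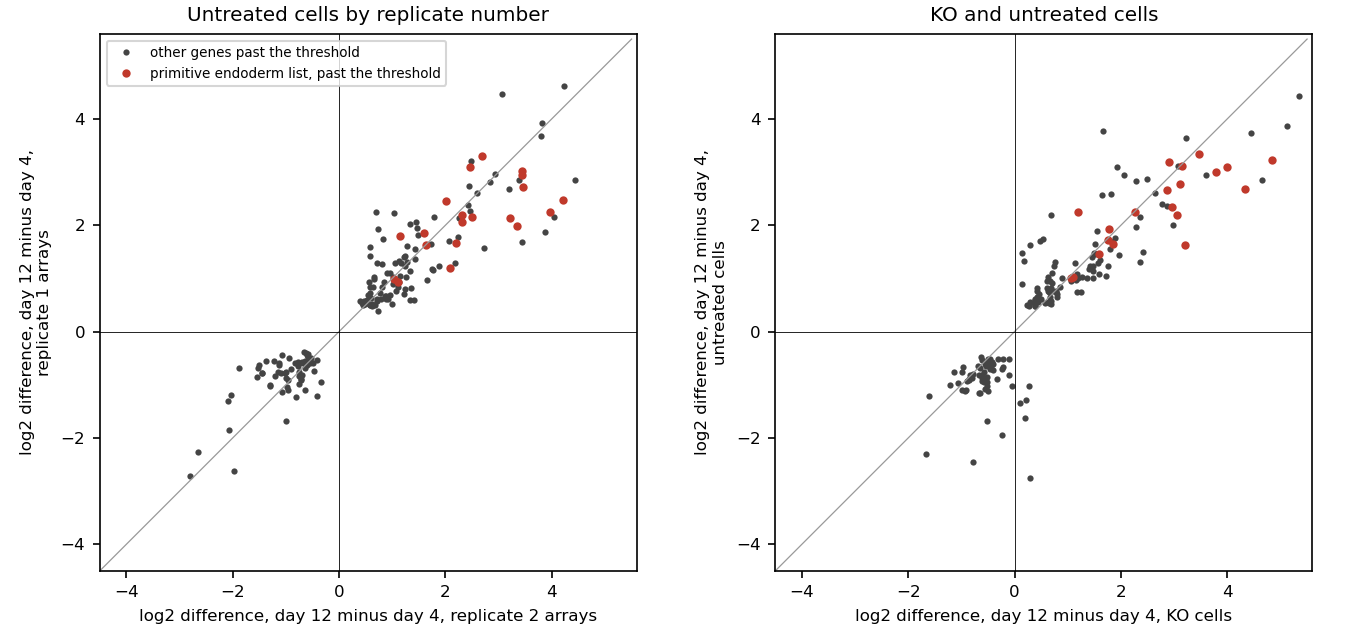
Log2 differences between day 12 and day 4 of the 181 genes past the threshold in untreated cells. Left, replicate 2 arrays (horizontal) against replicate 1 arrays (vertical); right, KO cells (horizontal) against untreated cells (vertical); red points are primitive endoderm genes, the diagonal marks equal differences, and in the right panel 119 higher and 57 lower genes keep their sign.

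Markers of the ES cell state were bright on both days and did not pass the test, where 0.995% of all entries did. Pou5f1 read 10734, 11135, 12568 and 11175 at day 12, against 11593, 13405, 12590.0 and 12476 at day 4, a log2 difference of -0.14 ± 0.12 (adjusted p = 0.678). The differences of Sox2 and Nanog were -0.08 ± 0.11 and -0.11 ± 0.12, those of Esrrb, Klf4 and Utf1 were 0.23, -0.60 and 0.34, and those of Zfp42 and Tdgf1 were -0.14 and -0.18. Zfp42 stood apart between the clones rather than the days, at 7272, 2800.5, 6486 and 2706 at day 12, against 7318, 2659.5, 9588 and 2796 at day 4, with every clone 10 array above every clone 15 array. The summed level of these 8 markers was 63775 to 79372 at day 12 and 72137 to 81372 at day 4. Of 22 general pluripotency genes 1 was lower, Dppa2, a chromatin protein of pluripotent cells. Of 30 naive pluripotency genes 1 was lower, Socs3, the feedback inhibitor of STAT3 signalling, where 0.341% of all entries were lower. Dppa2 read 3065, 3036, 2033 and 2462 at day 12, against 4818, 4163, 5106 and 5298 at day 4, a log2 difference of -0.89 ± 0.15 (adjusted p = 0.0141), with its call lost in 3 of the 16 fits that left out 1 array, and another probe set of the gene differed by -0.07 (limma adjusted p = 0.954). Socs3 read 4058, 3665, 3811 and 3488 at day 12, against 6455, 4896, 5417 and 4400.0 at day 4, a log2 difference of -0.48 ± 0.10 (adjusted p = 0.0495), and lost its call in 15 of the 16 fits that left out 1 array (adjusted p up to 0.152). The other probe sets of Socs3 differed by 0.23 and -0.11 without passing.

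**Figure D4:**
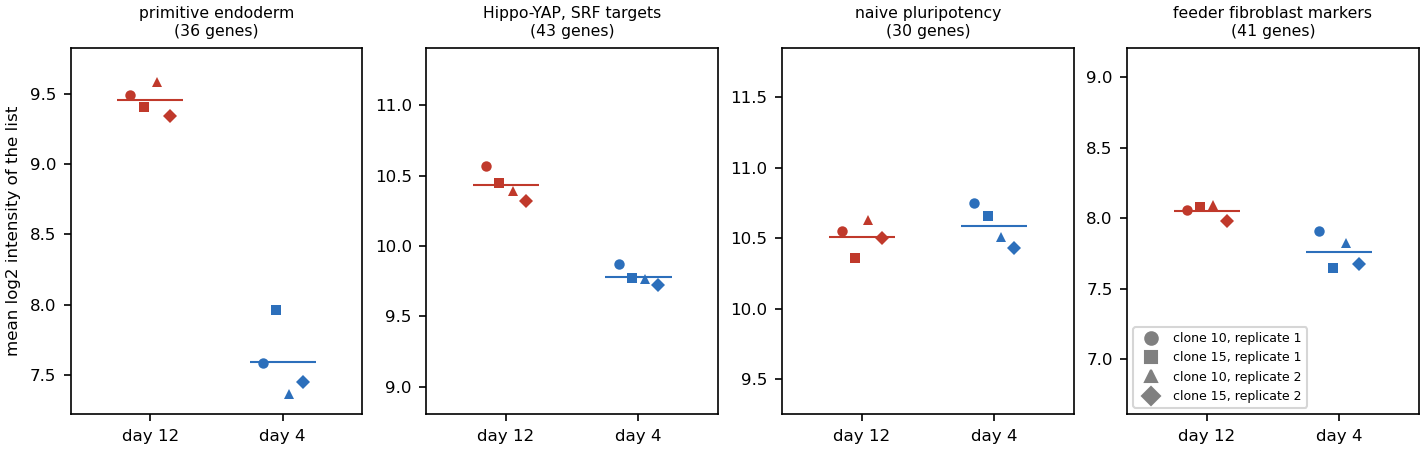
Mean log2 intensity of 4 gene lists on each untreated array, day 12 (red, left) and day 4 (blue, right), with axes of equal span; shapes give clone and replicate and bars the mean of 4 arrays. The primitive endoderm, Hippo-YAP and feeder fibroblast lists separate the days, the last by the smallest step, whereas the naive pluripotency list overlaps.

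Markers of other cell types were examined beside these genes. Of the 8 feeder fibroblast markers 0 passed, where 0.995% of all entries did, and a count of 0 in 8 lies near that share. Their summed level was 1434 to 1798 at day 12 and 893 to 1601 at day 4. Col1a1, encoding a fibrillar collagen chain of fibroblasts, read 277, 167, 414 and 425 at day 12, against 299.6, 289, 108 and 98.6 at day 4. The lowest were the replicate 2 arrays of day 4. Of 41 genes in the longer fibroblast list 1 was higher, Acta2, where 0.654% of all entries were. The median of this list was 0.33 with 32 above 0, as were 9511 of all 18195 entries. The mean log2 intensity of this list was 8.05 ± 0.05 at day 12 and 7.76 ± 0.12 at day 4 (SD, n = 4 arrays each), and the arrays of the days did not overlap. The part of feeder cells in the results was not tested. Among the 8 feeder fibroblast markers, the mean was at or below the array median for 3 at day 12 and for 2 at day 4. Lum and Prrx1 were below it on all 8 arrays. Of the trophectoderm markers Cdx2 was lower, where 0.341% of all entries were, and the other 5 did not pass. Of the mesoderm (4 measured), neural (4 measured), primed epiblast (4), 2-cell-like (3 measured) and blood and endothelial (4) markers 0 passed, where 0.995% of all entries did. The blood marker Gata1 read 107, 114, 107 and 147 at day 12, against 112, 85.6, 158 and 141 at day 4.

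The other large increases, named by their rank, came from several kinds of gene. In each every day 12 array lay above every day 4 array, which their choice on the same arrays favours. Ctsh, the lysosomal protease cathepsin H, was the largest at 1753, 2391, 1916 and 1623 at day 12, against 111, 232, 111 and 144 at day 4. This was a log2 difference of 3.74 ± 0.33 (adjusted p = 0.000178). Cyp26a1, which degrades retinoic acid, read 432, 579.8, 698 and 485 at day 12, against 56.7, 85.8, 10.1 and 71.6 at day 4, a log2 difference of 3.64 ± 0.60 (adjusted p = 0.013). Among its 4 day 4 arrays 1 was far below the rest, and with that value raised to the 25th percentile the fold was 9.64. The gene was the 1 of 22 hedgehog and retinoic acid genes that passed, where 0.995% of all entries did. Pla2g12b, a secreted phospholipase-like protein, read 429, 474, 439 and 458 at day 12, against 78.5, 50.3, 57.5 and 32.2 at day 4, a log2 difference of 3.11 ± 0.34 (adjusted p = 0.00101). The 4 day 12 arrays of this gene lay close together. Spink1, a trypsin inhibitor, read 1880.0, 1677, 2099.5 and 1595 at day 12, against 175, 362, 210.1 and 314 at day 4, a log2 difference of 2.82 ± 0.24 (adjusted p = 0.000164). Tinagl1, a matrix protein, rose by 2.88 ± 0.47 (limma adjusted p = 0.0124) and Lgals2, a galectin, by 2.84 ± 0.32 (limma adjusted p = 0.00112).

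Several further increases were picked after their values were seen, for the closeness of their arrays or for what they encode. Lgmn, the lysosomal endopeptidase legumain, read 3837, 3712, 4081 and 3762 at day 12, against 732, 842, 673 and 757 at day 4, a log2 difference of 2.36 ± 0.20 (adjusted p = 0.000164). Car4, a membrane carbonic anhydrase, read 2229.7, 1943, 1971 and 1775 at day 12, against 496, 446, 572 and 519 at day 4, a log2 difference of 1.96 ± 0.18 (adjusted p = 0.000178). Both genes varied little within a day, which the way they were picked favours. Clu, the secreted chaperone clusterin, read 4019, 4843, 2821 and 2699 at day 12, against 511, 850.3, 454 and 566 at day 4, a log2 difference of 2.59 ± 0.32 (adjusted p = 0.00204). Pth1r, the receptor for parathyroid hormone-related protein known from parietal endoderm, read 409, 281, 395 and 345 at day 12, against 108, 121, 51.0 and 61.4 at day 4, a log2 difference of 2.14 ± 0.35 (adjusted p = 0.0118). The day 12 and day 4 arrays did not overlap in any of these. Mttp, which loads lipid onto apolipoprotein B, rose by 1.23 ± 0.17 (limma adjusted p = 0.00467). Tfec had the largest fitted difference, 4.42 ± 0.58, from day 4 arrays of 3.83, 3.89, 5.73 and 4.95, all under the 25th percentile; with those raised to it, the fold was 3.43.

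Targets of Hippo-YAP signalling and of the actin-regulated factor SRF had the next highest median after primitive endoderm. Of 43 measured genes 6 were higher and 0 lower, against 0.654% and 0.341% of all entries. The median was 0.55, and 40 of the differences were above 0, as were 9511 of all 18195 entries. The 6 became 2 in the untreated arrays alone, and 3 without the untreated day 12 clone 10 replicate 1, day 12 clone 15 replicate 2, day 4 clone 10 replicate 2 or day 4 clone 15 replicate 2 array. Ankrd1, a classical YAP target, read 736, 819.8, 586 and 588 at day 12, against 95.1, 153, 69.8 and 58.2 at day 4, a log2 difference of 2.95 ± 0.36 (adjusted p = 0.00204). Krt8 and Krt18 belong to this list too. Acta2, smooth muscle actin, read 3054, 2293, 2242 and 2236 at day 12, against 1673, 1326, 1589 and 1425 at day 4, a log2 difference of 0.70 ± 0.13 (adjusted p = 0.0233). Tagln2, an actin-binding protein, had a log2 difference of 0.96 ± 0.17 (limma adjusted p = 0.021), but another bright probe set of it differed by -0.48 without passing. The call of Tagln2 was lost in 5 and that of Acta2 in 7 of the 16 fits that left out 1 array. Anxa3, an annexin, read 1196, 934, 649 and 529 at day 12, against 258, 190.3, 451 and 287 at day 4, a log2 difference of 1.48 ± 0.32 (adjusted p = 0.0491). Its call was lost in 15 of the 16 fits that left out 1 array (adjusted p up to 0.134), and its difference was 0.70 among replicate 2 and 2.25 among replicate 1 arrays (limma adjusted p of the difference = 0.0125). Ccn2, another YAP target, had 5687, 4939, 4544 and 4826 at day 12, against 2798, 2738, 1502 and 1352 at day 4 and did not pass (a log2 difference of 1.33 ± 0.30, adjusted p = 0.0555). Amot, a junctional protein that binds YAP and stands outside the list, read 1260.1, 961, 1236 and 949 at day 12, against 184, 246, 181 and 227 at day 4, a log2 difference of 2.39 ± 0.27 (adjusted p = 0.00112).

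Of 43 extracellular matrix and adhesion genes 7 were higher and 0 lower, against 0.654% and 0.341% of all entries, with a median of 0.34. In the untreated arrays alone 1 was higher. The fibroblast list given above was also higher at day 12 in its mean, and its part in this result was not tested. Of these, Col4a1, Col4a2, Lama1, Lamb1 and Sparc are shared with the primitive endoderm list, and the others were Timp2, a metalloproteinase inhibitor, at 607, 676, 716 and 719 at day 12, against 251, 248, 301 and 236 at day 4 (a log2 difference of 1.39 ± 0.13, adjusted p = 0.000354), and Cldn6, a tight junction claudin, at 2052, 2204, 2563 and 2429.7 at day 12, against 1414, 1258, 1373 and 1386 at day 4 (a log2 difference of 0.76 ± 0.10, adjusted p = 0.00453). The other probe sets of Timp2 differed by 1.57, 1.34, 1.26, 1.06 and 0.49 without passing. Cldn6, Gata6 and Sox17 were the 3 of 19 definitive endoderm genes that rose. Krt8 and Krt18 were the 2 of 25 trophectoderm genes that rose, while Cdx2 was lower. Gata6 and Sox17 rose and Cdx2 fell among 78 Polycomb-target transcription factors. Cdx2, the trophectoderm and hindgut factor, read 10.1, 3.39, 12.4 and 3.55 at day 12, against 41.3, 36.0, 42.5 and 50.1 at day 4. All 8 arrays were under the array median of 93.3, and all day 12 arrays were under the 25th percentile. With values raised to it the log2 difference of Cdx2 was -0.58 and did not pass (adjusted p = 0.348).

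**Figure D5:**
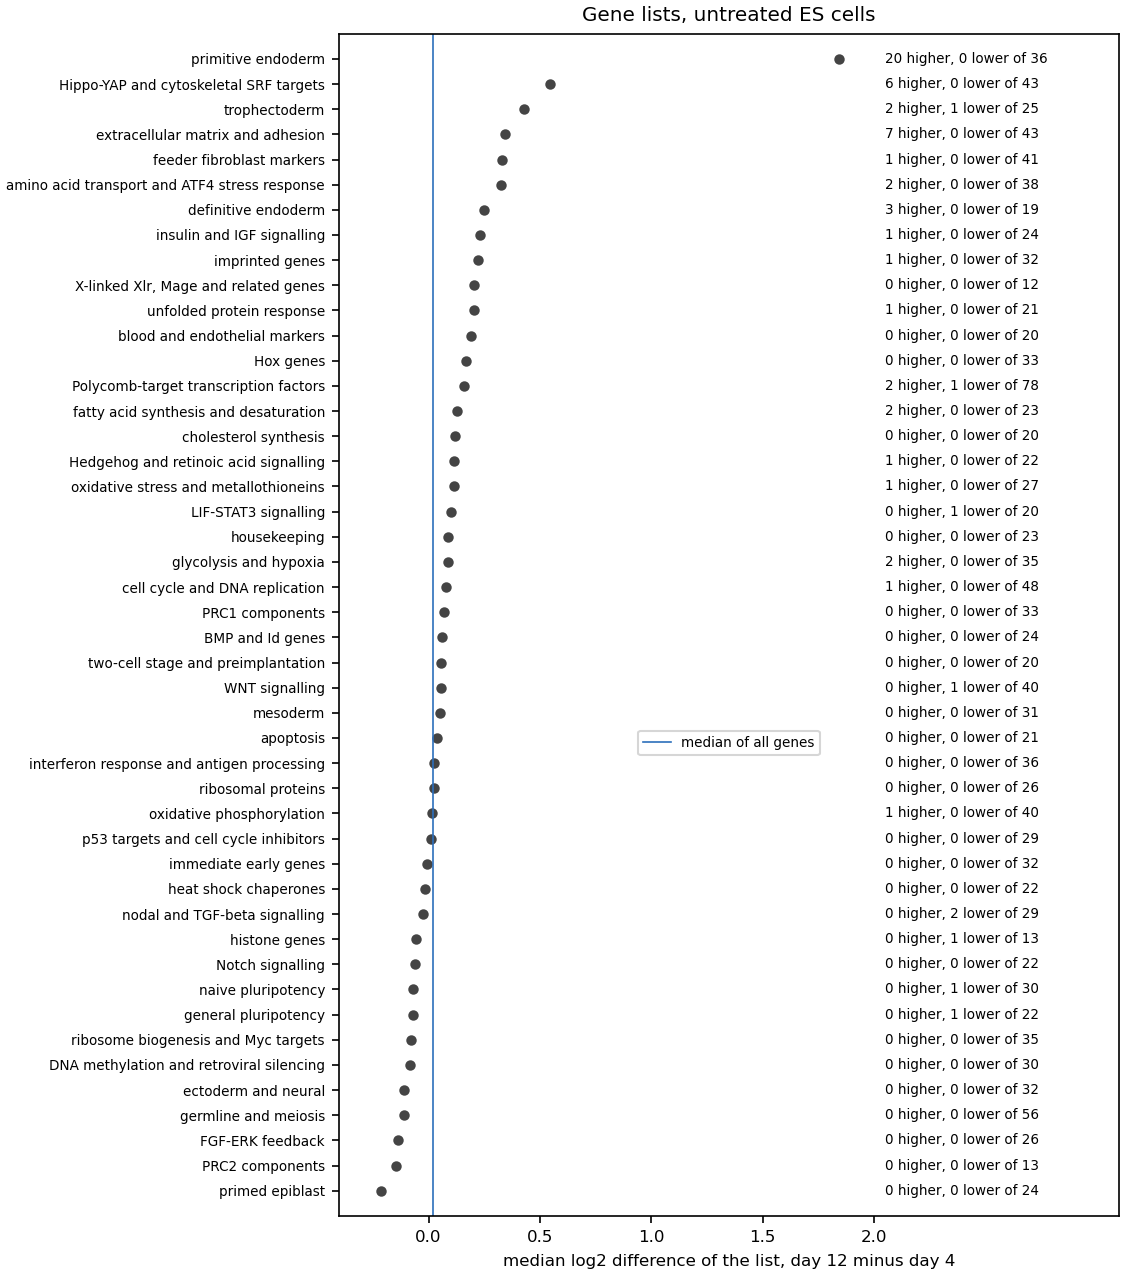
Median log2 difference between untreated day 12 and day 4 (horizontal axis) of each of 46 gene lists, with the blue line at the median of all genes. The numbers beside each point count the members past the threshold; the primitive endoderm list stands at 1.84 and the next, Hippo-YAP and cytoskeletal SRF targets, at 0.55.

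Genes of growth signalling, metabolism and stress passed singly or 2 to a list, where 0.654% of all entries were higher. Igf2, the imprinted growth factor, read 653, 512, 780.2 and 505 at day 12, against 283, 309, 186 and 212 at day 4, a log2 difference of 1.31 ± 0.21 (adjusted p = 0.0107), and was the 1 riser of 32 imprinted and of 24 insulin and IGF genes. Ccnd2, cyclin D2, rose by 1.02 ± 0.15 (limma adjusted p = 0.00723), the 1 of 48 cell cycle genes. The other probe sets of Ccnd2 differed by 0.95, 0.89, 0.86, 0.74, 0.13 and -0.79 without passing. Me1, the malic enzyme, rose by 1.56 ± 0.22 and Plin2, a lipid droplet protein, by 0.57 ± 0.11, 2 of 23 fatty acid genes. P4ha1 and P4ha2 were the 2 of 35 glycolysis and hypoxia genes, and both act on collagen. Slc3a2, the heavy chain of amino acid transporters, read 5234, 4256, 5534 and 4722 at day 12, against 3408, 2825, 3259 and 2688 at day 4. Sars, seryl-tRNA synthetase, read 5344, 5386, 5723 and 5508 at day 12, against 3343, 3301, 3929.6 and 3747 at day 4. These were the 2 of 38 amino acid and ATF4 genes that passed, and they rose by 0.70 ± 0.09 and 0.62 ± 0.10 (limma adjusted p = 0.00255 and limma adjusted p = 0.0084). Another bright probe set of Sars differed by 0.33 without passing. Gpx3, a secreted glutathione peroxidase, rose by 0.91 ± 0.16, the 1 of 27 oxidative stress genes. Edem1 rose by 0.49 ± 0.10, the 1 of 21 unfolded protein response genes, and Cox8a by 0.48 ± 0.09, the 1 of 40 oxidative phosphorylation genes. Over the mean of its probe sets the log2 difference of Cox8a was -0.052. Over the fits that left out 1 array, calls were lost in 14 of 16 for Edem1 (adjusted p up to 0.119), 8 for Cox8a, 6 for Plin2, 5 for P4ha1 and 3 for Gpx3.

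The 62 lower genes changed less. Bnc2, a zinc finger protein, read 389, 337, 309 and 284 at day 12, against 669, 642, 929 and 810.2 at day 4. This was a log2 difference of -1.20 ± 0.21 (adjusted p = 0.0149). The other probe sets of Bnc2 differed by -0.78 and 0.61 without passing, the latter dim with a mean log2 intensity of 3.07. Enpp4, a membrane ectoenzyme, averaged 215 ± 23.5 at day 12 and 482 ± 68.1 at day 4 (SD, n = 4 arrays each), a log2 difference of -1.16 ± 0.16 (adjusted p = 0.0041). Ninl, a centrosomal protein, read 480.4, 444, 314 and 355 at day 12, against 743, 837, 1076 and 780.4 at day 4, a log2 difference of -1.11 ± 0.18 (adjusted p = 0.0118). Glipr1 read 249.6, 234, 226 and 184 at day 12, against 478, 512, 539.6 and 463 at day 4, a log2 difference of -1.16 ± 0.16 (adjusted p = 0.00449), but another probe set of this gene differed by 3.12 (limma adjusted p = 0.00143 over every probe set), so the gene has no single direction. In Bnc2, Enpp4 and Ninl every day 12 array lay below every day 4 array. Myo1f, an unconventional myosin, fell by 1.11 (limma adjusted p = 0.0429) and Zmynd11, a reader of histone methylation, fell by 1.10 (limma adjusted p = 0.0371). The other probe sets of Zmynd11 differed by -0.24, -0.50 and -0.47 without passing. AI662270 fell by 1.07 with overlapping arrays (limma adjusted p = 0.0396). Adgrf5, Serpinb1a, Gm9918, Cmah and 1700010I14Rik were dim, with day 4 means of 90.5, 133, 93.4, 64.1 and 59.5, and fell by 1.62, 1.34, 1.10, 1.95 and 1.69. The day 12 means of Cmah and 1700010I14Rik, 15.6 and 18.9, were under the 25th percentile. With values raised to it their log2 differences were -1.07 and -1.06, that of Adgrf5 was -1.35, and Cmah did not pass (adjusted p = 0.16). Over the 16 fits that left out 1 array, calls were lost in 13 for Myo1f, 13 for Serpinb1a, 12 for AI662270, 11 for Zmynd11, 9 for Adgrf5, 9 for Cmah, 7 for 1700010I14Rik, 5 for Gm9918 and 4 for Bnc2.

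Among the listed genes, Wnt5a, a ligand of non-canonical WNT signalling, read 121, 123, 120.2 and 113 at day 12, against 280.2, 228, 326 and 162 at day 4, a log2 difference of -1.01 ± 0.16 (adjusted p = 0.00987), and was the 1 of 40 WNT genes that changed. Inhbb, the activin beta B subunit, read 263, 257, 285 and 317 at day 12, against 516, 453, 558 and 442 at day 4, a log2 difference of -0.81 ± 0.16 (adjusted p = 0.0331), and Tgfbi, a matrix protein induced by TGF-beta, read 121, 128, 136 and 94.0 at day 12, against 254, 212, 179 and 267 at day 4, a log2 difference of -0.93 ± 0.17 (adjusted p = 0.0219). They were the 2 of 29 nodal and TGF-beta genes that passed, and their calls were lost in 8 and 5 of the 16 fits that left out 1 array. Other probe sets of Tgfbi differed by 0.08, 0.29 and -0.55, and 0 of these passed. H2bc21 was the 1 of 13 histone genes, with a log2 difference of -0.96 ± 0.15. Over all entries 0.341% were lower. Socs3 was also the 1 of 20 LIF-STAT3 genes. Tle4, a Groucho corepressor chosen after its values were seen, read 1919.6, 1411, 1973 and 1607 at day 12, against 3467, 3610.2, 2959 and 2591 at day 4, a log2 difference of -0.87 ± 0.14 (adjusted p = 0.0119). The other probe sets of Tle4 differed by -0.21 and 0.34 without passing. Casp8ap2, a protein of histone mRNA processing chosen likewise, read 1638, 1923, 1212 and 1895 at day 12, against 2698, 3481, 2923 and 3589 at day 4, a log2 difference of -0.94 ± 0.12 (adjusted p = 0.00204).

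In the following lists 0 members passed in either direction: primed epiblast (24 measured), preimplantation stages (20), germline and meiosis (56), mesoderm (31), ectoderm and neural (32), blood and endothelial markers (20), Hox genes (33), PRC1 components (33), PRC2 components (13), DNA methylation and retroviral silencing (30), BMP and Id genes (24), FGF-ERK feedback (26), immediate early genes (32), Notch signalling (22), cholesterol synthesis (20), heat shock chaperones (22), p53 targets and cell cycle inhibitors (29), interferon response and antigen processing (36), ribosome biogenesis and Myc targets (35), ribosomal proteins (26), apoptosis (21) and housekeeping (23). Nor did any of 12 X-linked Xlr, Mage and related genes. Over all entries 0.995% passed in either direction, and counts of 0 in lists of this size lie near that share. The medians of these lists lay between -0.21 and 0.21. The members nearest the threshold included Il17rd, a feedback inhibitor of FGF signalling (a log2 difference of -0.44 ± 0.10, adjusted p = 0.0542), Dazl, a germ cell RNA-binding protein (a log2 difference of -0.78 ± 0.19, adjusted p = 0.074), and Cryab, a small heat shock protein (a log2 difference of 1.47 ± 0.33, adjusted p = 0.0555). Bmp2, a ligand of BMP receptors, had a log2 difference of 3.34 ± 0.78 (adjusted p = 0.0645), with 3 of its 4 day 4 arrays under the 25th percentile. With values raised to it the difference was 1.42. A p that misses the threshold does not show that these genes held their level.

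Whether the day difference itself varied was tested in 3 ways over all entries. Between KO and untreated cells 0 genes passed (limma, lowest adjusted p = 0.816; 832 genes had an unadjusted p under 0.05). In KO cells alone 408 genes were higher (2.24%) and 187 lower (1.03%) at day 12. Of the 119 higher genes of untreated cells 119 had the same sign in KO cells and 96 were called there; of the 62 lower genes 57 had the same sign and 30 were called, where 66% of all entries had the same sign. The median KO difference was 1.37 for the higher genes and -0.54 for the lower genes. Cdx2, Adgrf5 and Serpinb1a were among the 5 with the other sign, with 0.29, 0.20 and 0.11 in KO cells. Between clone 15 and clone 10, 0 genes passed (limma, lowest adjusted p = 0.232, with 585 at an unadjusted p under 0.05). All 181 genes kept their sign in either clone, which the choice of genes by their mean over both clones favours.

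Between the replicate numbers the day difference differed in 1723 genes, 1019 with a more positive difference in replicate 2 arrays (5.6%) and 704 with a more negative one (3.87%). This count was 0 when the 8 untreated arrays were fitted alone, and it was 0 without the day 12 clone 10 replicate 2 array and 62 without the day 4 clone 15 replicate 1 array. Of the 181 genes past the threshold 5 were among them, Col4a1, Myof, Anxa3, Stard10 and Dmrt1 (the calls of Stard10 and Dmrt1 over all arrays were lost in 11 and 10 of the 16 fits that left out 1 array), and the 181 had the same sign under both numbers, which the choice of genes by their mean favours. The 5 smallest p-values belonged to genes that did not pass over all arrays: Palm, Fxr2, Lrfn4, Iqgap3 and Mrtfa. Palm, a membrane-associated protein, read 238, 124, 587 and 517 at day 12, against 508, 562, 99.9 and 76.6 at day 4, so that it was lower at day 12 among the replicate 1 arrays (-1.64) and higher among the replicate 2 arrays (2.66; limma adjusted p of the difference = 0.0105). In Palm the replicate 2 arrays differed from the replicate 1 arrays by -2.61 at day 4 and by 1.68 at day 12.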

How the data were processed

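Total RNA was hybridised to Affymetrix Mouse 430 2.0 type arrays with 45101 probe sets; the design text names the 430A 2.0 array. The submitters' processing notes list RMA and Affymetrix Expression Console without versions. Each deposited value is a linear intensity (0.144 to 52570), with identical sorted values on all 16 arrays. They had been assumed to be log2, so they were transformed to log2 here with no offset before the same test was run. Depth does not apply to arrays, and the number of arrays limits the precision.

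Of the probe sets, 64 were controls, 34945 had 1 gene symbol in the platform annotation, 932 had several and 9160 had none. The probe set with the highest mean log2 intensity represented each gene, giving 18193 genes, and the 2 probe sets shared by Rybp and its pseudogene were kept as entries of their own. Symbols and promoter windows came from RefSeq (GRCm38.p6). limma 3.58.1 (R 4.3.3, statmod 1.5.0) fitted all 16 arrays with a mean for each of 4 groups and a term for clone, and p-values were adjusted by Benjamini-Hochberg over 18195 entries. The same design with a mean for each replicate number and group gave the values within each number. The procedure was tested on simulated data.

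Genes were named as the 12 largest changes in each direction with equal sign in all 4 pairs of equal clone and number, ranked with intensities under the 25th percentile (28.3) raised to it, up to 4 changed or 2 nearest members of each list, the defining markers, and the 5 smallest p-values of each test of a difference. Others, including unchanged members of the primitive endoderm list, were chosen after their values were seen. The groups compared and the gene lists were chosen with earlier results of these data known. Alternatives covered the arrays fitted, replicate block, floor, offset, probe set rule and moderation.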

Additional observations from a re-analysis of the deposited data

Results flagged for a closer look

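In 8 of 220 groups of 4 arrays (110 named genes, each on both days) 1 array stood far from the other 3, where chance gives about 1 in 20 groups. At day 12 these were Acta2 at 3054 in clone 10 replicate 1 and Gata6 at 265 in clone 15 replicate 1. At day 4 clone 15 replicate 1 stood apart for Ccnd2 at 358, Gpx3 at 496 and Me1 at 576, and clone 15 replicate 2 for P4ha2 at 481, Afp at 1.95 and Prrx1 at 22.6.

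The day difference was larger in replicate 2 than in replicate 1 arrays by 1.74 for Col4a1, 1.76 for Myof and 0.82 for Stard10. For Anxa3 it was smaller, with replicate 2 minus replicate 1 at -1.55, and for Dmrt1, which was lower at day 12, it was 0.80 (limma adjusted p under 0.05 in each). Over all entries 1019 had a more positive and 704 a more negative difference in replicate 2 arrays.

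Among 10092 probe sets with several gene symbols or none, which enter no comparison of named genes, 7 were higher and 9 lower at day 12 than at day 4.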

How the results depend on the processing

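The counts of changed genes depended on the processing more than the direction of single genes did. The 8 untreated arrays alone gave 20 higher and 1 lower gene (6 of the primitive endoderm list), and a mean for each clone and group 49 and 9. Fits of replicate 1 only, replicate 2 only, clone 10 only and clone 15 only each gave 0 and 0 (0 of the list), having few residual degrees of freedom. In the fit with a mean for each number and group, added after seeing the data, replicate 1 gave 363 and 261, replicate 2 gave 1530 and 1154, and their mean 722 and 594. Raising low intensities to the 25th percentile gave 285 and 205, an offset of 50 gave 204 and 108, the brighter genes alone 275 and 210, and trend with robust moderation 227 and 125. The mean of a gene's probe sets gave 70 and 18, every probe set tested left 18 lower, and at least 2-fold left 77 and 20. The replicate numbers did not pair day 12 with day 4 arrays, whose deviations at equal clone and number correlated at -0.12 to -0.0696, although within day 4 same-numbered arrays deviated together (0.15 to 0.174). A replicate block over all 16 arrays gave 287 and 200, one of clone and number 213 and 133, and one of the 4 untreated pairs 0 and 0 (0 of the list; limma, 1796 genes at an unadjusted p under 0.05).

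Leaving out 1 array gave 66 to 118 higher, 19 to 52 lower and 17 to 22 primitive endoderm genes; 59 of the 119, 10 of the 62 and 16 of the 20 were called in all 16 of these fits. The lower count moved by over 1.5 times without untreated day 12 clone 10 replicate 1 (28) or 2 (24), day 12 clone 15 replicate 2 (21), day 4 clone 10 replicate 1 (25) or 2 (20), day 4 clone 15 replicate 1 (29) or 2 (19), KO day 12 clone 15 replicate 1 (40) or 2 (39), and KO day 4 clone 10 replicate 1 (35). The count of genes differing between replicate numbers was 0 in the untreated arrays alone, 2681 with the floor, 3274 in the brighter genes, 682 over every probe set, 672 with the mean of probe sets, 3161 with trend and robust moderation, and 0 to 1776 without 1 array. It moved without day 12 clone 10 replicate 2 (0), day 12 clone 15 replicate 1 (260) or 2 (801), day 4 clone 10 replicate 1 (797) or 2 (290), and day 4 clone 15 replicate 1 (62) or 2 (282), all untreated. The KO difference gave 1 gene with the mean of probe sets, and the clone difference 0 to 2 without 1 array. With the mean of probe sets the log2 difference of Cox8a turned to -0.052 and the log2 difference of Glipr1 to 0.98; the cause was not tested beyond their other probe sets.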
